A study of Mus musculus with 4 samples.

Results

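This section describes 10 genes that handle heme, iron and other metals: the metallothioneins Mt1 and Mt2, the heme oxygenase Hmox1, the iron uptake genes Tfrc, Trf, Slc11a2 and Slc39a14, the ferroxidase gene Cp, the iron exporter Slc40a1 and the ferritin heavy chain Fth1. They were chosen by name, with earlier results of these data known, and every probe set annotated to them was read. Of these 10 genes, 9 had at least 1 probe set of their own, with 27 such probe sets in all, among 18193 genes and 45037 probe sets on the array. The only probe set of Trf was annotated to both Trf and Srprb, and it stays out of every count below.

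Kidney RNA came from male C57Bl/6 mice of 2 genotypes, wild type and Tet2 knockout, collected after a sham operation or after 60 min of renal ischemia with 24 h of reperfusion, here called IR. The 4 groups are named WT sham, WT IR, Tet2KO sham and Tet2KO IR, and values of 4 arrays are always given in that order. Each group was 1 Affymetrix array hybridised with RNA pooled from 3 mice, so that no spread between mice could be measured and no test was made. The age of the mice, the knockout allele and the tissue in which it acts are not given in the sources used here. The TET2 protein oxidises methylated cytosines in DNA.

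Heme released from damaged cells and from red cells is toxic, and heme oxygenase opens its ring and frees the iron. Free iron is held in ferritin or leaves the cell through ferroportin, the product of Slc40a1, and ceruloplasmin, the product of Cp, oxidises it for binding to transferrin. Metallothioneins are small cysteine-rich proteins that bind zinc and copper. Their genes are switched on by the metal-sensing factor MTF1, by glucocorticoids and by oxidative stress, also in kidney tubules.

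Values are log2 signals as deposited, and a difference of 1 on that scale is a 2-fold difference, the size used here to call a gene higher or lower. Signals under 5.72, the 40th percentile of all signals, were set to that floor in ratios and in the distances between profiles given below. As the only measure of technical error, the SD of the log2 ratio between probe sets of the same gene was 0.23 for IR over sham in WT, 0.39 for the same in the Tet2KO pair, 0.18 between the sham arrays, 0.32 between the IR arrays and 0.37 for how far the responses differed, over 5404 genes. It covers neither differences between mice nor errors that all probe sets of an array share. Real differences between transcripts of a gene can add to it. The share of probe sets at or over the floor lay between 59.7% and 60.4% in the 4 arrays. Tet2 itself did not separate the sham arrays: its probe sets had log2 signals of 9.96 and 9.84 in WT sham, 9.16 and 9.30 in WT IR, 9.87 and 10.25 in Tet2KO sham and 8.74 and 8.60 in Tet2KO IR. Where these probe sets lie relative to the deletion is not known here, so Tet2KO stands for the label only.

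Mt1 and Mt2 were higher after IR in both genotypes, and the bases before their starts are shown because the metal-sensing factor acts there. In the RefSeq annotation both genes lie side by side on chromosome 8, after Mt4 and Mt3. The 250 bases before each start are given on the gene strand, from the RefSeq build GRCm38.p6. Capitals mark the metal response core, TGCACNC or TGCGCNC, and the antioxidant response core, TGACNNNGC, searched on both strands.
Mt1, chr8:94178839-94179088, plus strand: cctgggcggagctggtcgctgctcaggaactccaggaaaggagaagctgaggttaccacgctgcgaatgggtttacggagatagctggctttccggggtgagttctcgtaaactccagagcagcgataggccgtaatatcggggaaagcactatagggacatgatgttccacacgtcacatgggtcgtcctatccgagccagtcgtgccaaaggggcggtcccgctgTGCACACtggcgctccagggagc
Mt2, chr8:94172368-94172617, plus strand: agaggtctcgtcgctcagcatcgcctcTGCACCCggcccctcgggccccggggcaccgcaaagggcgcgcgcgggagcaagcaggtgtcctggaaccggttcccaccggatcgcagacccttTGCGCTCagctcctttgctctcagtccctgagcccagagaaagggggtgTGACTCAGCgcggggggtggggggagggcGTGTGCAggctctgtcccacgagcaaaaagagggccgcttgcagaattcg

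The Mt1 window held 1 metal response core, from 23 to 17 bases before the annotated start. The Mt2 window held 3, which began 223, 128 and 50 bases before the start, the last of them on the other strand. These counts depend on where the annotated start lies: the first 50 bases after it held 2 more cores in Mt1 and 1 more in Mt2, so that over 300 bases Mt1 held 3 and Mt2 held 4, and 1.97% of all such windows held 3 or more. Of 32851 RefSeq promoter windows of the same length, 21.4% held 1 or more of these cores and 1.26% held 3 or more. One antioxidant response core was found, in Mt2, from 79 to 71 bases before the start, and 10.2% of all windows held one. It overlapped a match to TGACTCA, the site known for binding AP-1, which 4.46% of windows held. The hypoxia core, ACGTG or GCGTG, occurred 2 times in Mt1 and 1 time in Mt2, where it overlapped the metal response core nearest the start, and 38.6% of windows held it. The bases after the annotated start were searched for the metal response core only. The counts of the other motifs in Mt1 and Mt2 thus cover only the 250 bases before it and also depend on where it lies. A match describes the letters and does not show binding. Of the 10 genes, 5 had an entry in the promoter table, and Hmox1 was not among them.

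**Figure D1:**
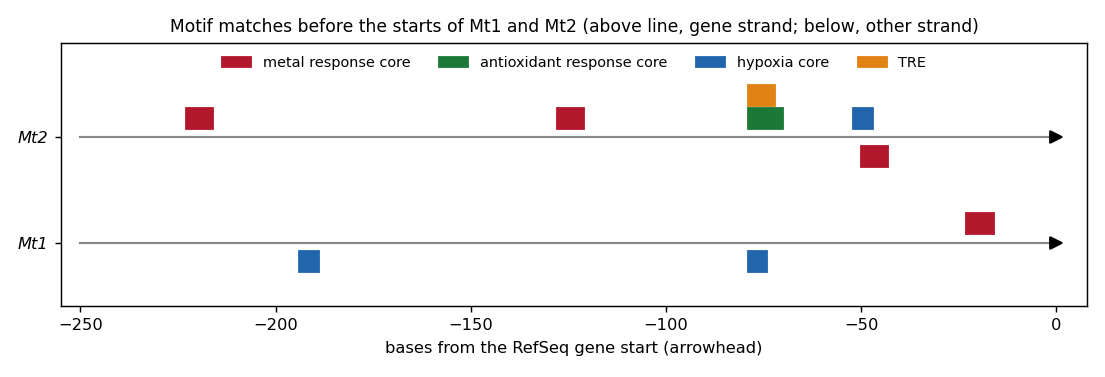
Motif matches in the 250 bases before the RefSeq starts of Mt1 and Mt2, by distance in bases from the start (arrowhead), with matches on the gene strand above each line and matches on the other strand below it. Mt2 has 3 metal response cores and an antioxidant response core overlapped by a TRE (TGACTCA); Mt1 has 1 metal response core, and bases after the annotated start, where Mt1 has 2 more, are not drawn.

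After IR, 4 of the 9 genes read were higher at 2-fold or more in WT, where 2.06% of all genes measured were higher: Mt1, Mt2, Hmox1 and Cp. The same 4 of 9 were higher in the Tet2KO pair, where 6.06% of genes were. None of the 9 was lower at 2-fold in either pair, beside 2.18% of all genes in WT and 6.89% in the Tet2KO pair. In each pair 5 of 9 differed by less than 2-fold. The median log2 ratio of the 9 genes was 0.61 in WT and 0.65 in the Tet2KO pair, beside medians of 0.017 and -0.017 over all genes measured. The WT sham and IR arrays and the Tet2KO pair share no array.

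**Figure D2:**
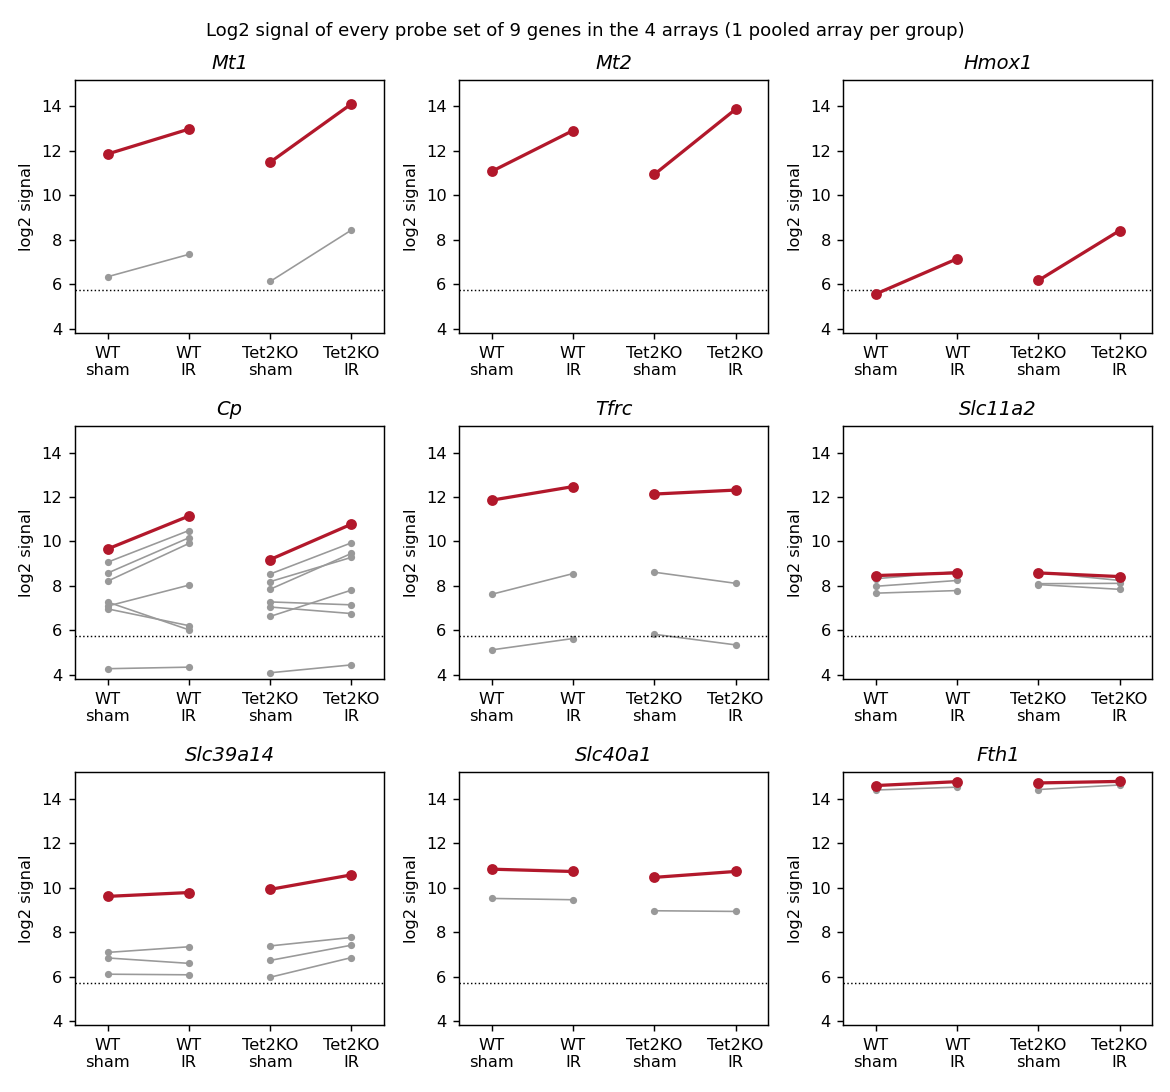
Log2 signal of every probe set of the 9 genes in the 4 arrays (WT, wild type), with 1 array per group and no error bars. Red marks the probe set with the highest mean signal, grey the other probe sets, lines join the sham and IR arrays of a genotype, and the dotted line is the floor; Mt1, Mt2, Hmox1 and most probe sets of Cp are higher after IR in both pairs, while the IR over sham ratios of Fth1 and Slc40a1 lie between -0.10 and 0.27.

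The brighter Mt1 probe set had log2 signals of 11.86 in WT sham, 12.98 in WT IR, 11.49 in Tet2KO sham and 14.11 in Tet2KO IR. Both IR arrays were thus above both sham arrays, and the Tet2KO one was highest. Mt1 was 2.17-fold higher after IR in WT and 6.17-fold higher in the Tet2KO pair. Its dimmer probe set, with signals from 6.12 to 8.43, kept the same order, with log2 ratios of 1.01 and 2.31.

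Mt2 had 1 probe set, with log2 signals of 11.07, 12.91, 10.93 and 13.87. The array order matched that of Mt1. Mt2 was 3.58-fold higher in the WT pair and 7.65-fold higher in the Tet2KO pair. Among the other metallothionein genes, Mt3, known from brain, stayed between 6.33 and 6.57, and Mt4, known from squamous epithelium, was under the floor in all 4 arrays. Mtf1, which encodes the metal-sensing factor, had log2 ratios of 0.04 in WT and 0.60 in the Tet2KO pair, and from 0.08 to 0.24 on the remaining probe sets of the gene in the latter.

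Hmox1, the inducible enzyme of heme breakdown, was dim in the sham arrays. Its log2 signals were 5.56 in WT sham, which is under the floor, 7.14 in WT IR, 6.16 in Tet2KO sham and 8.41 in Tet2KO IR. Both IR arrays were above both sham arrays. Hmox1 was at least 2.67-fold higher in WT and 4.74-fold higher in the Tet2KO pair. Against the Tet2KO sham array, the WT log2 ratio was 0.98, just under 2-fold, and with the floor at the 60th percentile it was 0.16. Of the other genes of heme breakdown, Blvrb, a biliverdin reductase, was 2.08-fold higher in WT and 2.65-fold higher in the Tet2KO pair. The main biliverdin reductase Blvra had log2 ratios of 0.38 and 0.28, and the constitutive oxygenase Hmox2 of 0.00 and 0.01.

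Beside Hmox1 stand markers of cells that carry or recycle heme. Macrophage markers did not move together: of 8 measured, 2 were higher and 3 lower after IR in WT, and 2 were higher and 2 lower in the Tet2KO pair. Cd68 was at log2 signals of 5.34, 8.03, 5.56 and 7.88 in the usual order, and Cd14 at 7.29, 8.79, 6.48 and 10.84. Csf1r, the receptor of a macrophage growth factor, went the other way, at 11.34, 9.98, 11.40 and 9.13, as did C1qb, with log2 ratios of -1.05 and -1.04. The summed linear signal of the 11 markers, 3609 in WT sham, 2141 in WT IR, 3679 in Tet2KO sham and 3216 in Tet2KO IR, was mostly Csf1r in the sham arrays, at 71.9% and 73.2%, and mostly Cd14 in the Tet2KO IR array, at 57.0%. Cd163, the hemoglobin receptor of macrophages, Vsig4 and Spic were under the floor in all arrays. Of 11 red cell markers only 5 had a probe set of their own, with Hba-a1 under the floor throughout. Their sum was 916.3, 610.3, 753.4 and 340.1, of which Slc4a1, also a collecting duct marker, made up 65.3%, 64.0%, 69.2% and 12.6%. Alas2, the heme synthesis enzyme of red cell precursors, had log2 ratios of -0.86 in WT and 0.99 in the Tet2KO pair. Of the red cell markers measured, 0 of 4 were higher or lower at 2-fold in WT. In the Tet2KO pair 0 of 3 were higher and 1 was lower. The median log2 ratio of the list was -0.45 in WT and -0.11 in the Tet2KO pair. Whether the number of red cells differed was not tested. Neutrophil markers, 8 of them, summed to 473.6, 631.4, 481.2 and 2409, and S100a8 and S100a9 made up 43.4% and 40.3% of the last sum. These were the 2 of 7 measured neutrophil markers that were higher in the Tet2KO pair, where the median log2 ratio of the list was 0.30 and Csf3r, Camp, Ltf and Ngp lay between -0.35 and 0.30. The part of these cells in the Hmox1 signal was not tested. In whole-kidney RNA, fewer cells of a type and less RNA per cell cannot be told apart.

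Cp had 8 probe sets, which showed different patterns. On the brightest, the log2 signals were 9.66 in WT sham, 11.14 in WT IR, 9.18 in Tet2KO sham and 10.78 in Tet2KO IR. The IR arrays were above both sham arrays, by 2.79-fold in WT and 3.02-fold in the Tet2KO pair. Unlike the metallothioneins, Cp was not highest in the Tet2KO IR array.

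The Cp probe sets 1417495_x_at, 1448734_at, 1455393_at and 1417496_at had log2 ratios from 0.94 to 1.70 in WT and from 1.09 to 1.61 in the Tet2KO pair. Probe sets 1448735_at and 1417497_at went the other way. The first had log2 signals of 7.27, 6.02, 7.28 and 7.15, and log2 ratios of -1.25 in WT and -0.13 in the Tet2KO pair. The second had 6.97, 6.21, 7.05 and 6.75, with log2 ratios of -0.75 and -0.29. The remaining probe set, 1441326_at, was under the floor in all arrays. Cp transcripts are known to be spliced into a secreted and a membrane-anchored form, and which transcript each probe set reads is not given in the sources used here.

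In IR over sham, Tfrc stayed within 2-fold on every probe set. It encodes transferrin receptor 1, whose transcript is known to be stabilised when cells lack iron. Its brightest probe set had log2 signals of 11.86 in WT sham, 12.47 in WT IR, 12.13 in Tet2KO sham and 12.31 in Tet2KO IR. The 4 arrays lay within 0.61 of each other, with log2 ratios of 0.61 in WT and 0.18 in the Tet2KO pair. Its probe set 1422966_a_at gave 7.62, 8.55, 8.62 and 8.12, so that IR was above sham in WT, by 0.93, and below it in the Tet2KO pair, by a log2 ratio of -0.50. There the WT sham array was the low one, 0.99 below the Tet2KO sham array. The third probe set was under the floor in 3 of the 4 arrays.

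The probe set annotated to both Trf, the gene of transferrin, and Srprb, a subunit of the signal recognition particle receptor, had log2 signals of 7.73, 9.23, 6.79 and 8.14 in the same order. Its log2 ratios of IR over sham were 1.50 and 1.35. Both Tet2KO arrays were below the WT arrays of the same treatment, with log2 ratios of -0.94 after sham and -1.09 after IR. These values cannot be assigned to either gene.

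Slc11a2 encodes the ferrous iron transporter DMT1, which carries iron out of endosomes. On its brightest probe set the log2 signals were 8.46, 8.59, 8.58 and 8.42 in the same order, with no array apart from the rest. Its 4 probe sets had log2 ratios from 0.12 to 0.32 in WT and from -0.36 to 0.02 in the Tet2KO pair.

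Slc39a14 encodes ZIP14, a carrier of zinc and of iron not bound to transferrin. Its brightest probe set had 9.61 in WT sham, 9.78 in WT IR, 9.92 in Tet2KO sham and 10.58 in Tet2KO IR, so that the last stood above the other 3 arrays. All 4 probe sets were higher after IR in the Tet2KO pair, with log2 ratios from 0.38 to 0.88, under 2-fold. In WT they ranged from -0.24 to 0.25.

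Slc40a1, the gene of the iron exporter ferroportin, had log2 signals of 10.83, 10.73, 10.46 and 10.73 on its brighter probe set and of 9.52, 9.46, 8.96 and 8.93 on the other. On both, the Tet2KO sham array was below the WT sham array, with log2 ratios of -0.37 and -0.55. After IR the genotypes differed by -0.53 on the dimmer probe set and by 0.00 on the brighter. The IR ratios lay between -0.10 and 0.27.

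Fth1, the heavy chain of ferritin that oxidises and stores iron, was among the brightest signals of the array. Its log2 signals were 14.60, 14.77, 14.72 and 14.79 on one probe set and 14.40, 14.53, 14.42 and 14.62 on the other. The largest IR log2 ratio was 0.20. The highest signal of any probe set lay between 14.86 and 14.97 in the 4 arrays.

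**Figure D3:**
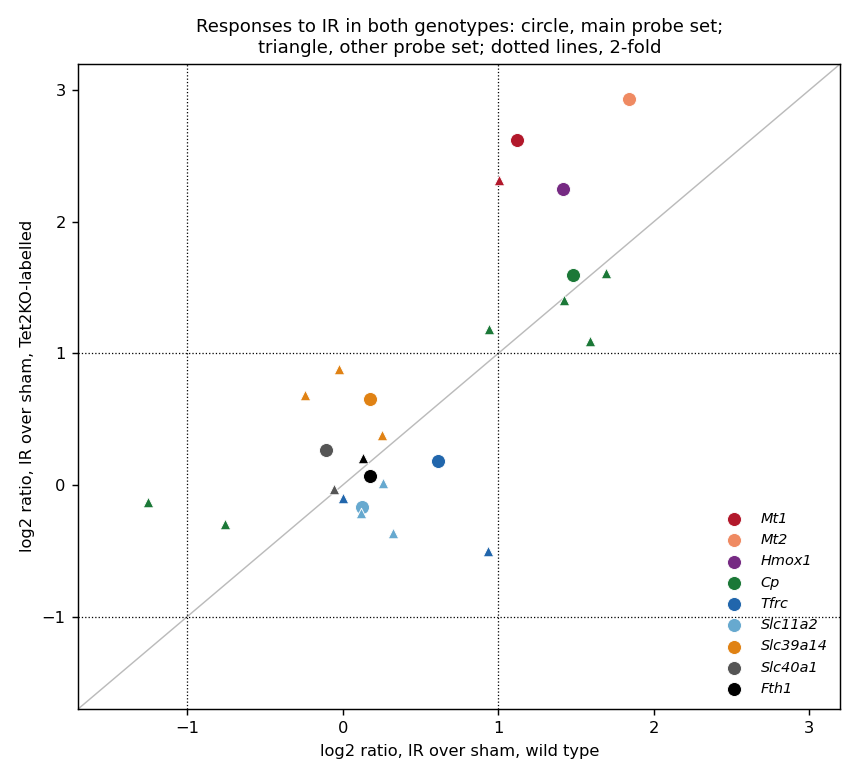
Log2 ratio of IR over sham in WT (x axis) and in the Tet2KO pair (y axis) for the 26 measured probe sets of the 9 genes, with circles for the brightest probe set of a gene, triangles for its other probe sets, dotted lines at 2-fold and a line of equal response. Mt1, Mt2 and Hmox1 lie above the line and Cp near it, and the Cp probe sets split.

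Between the genotypes after sham, 0 of 9 genes differed by 2-fold or more, where 1.03% of all genes measured did in either direction. Their log2 ratios, Tet2KO over WT, ran from -0.48 for Cp to 0.44 for Hmox1, the latter a lower bound because the WT signal was under the floor. After IR, 2 of 9 were higher in the Tet2KO array, beside 3.68% of all genes: Hmox1 at 2.41-fold and Mt1 at 2.19-fold. Mt2 was at 1.94-fold and Slc39a14 at 1.74-fold. The response itself was larger in the Tet2KO pair by 2-fold or more for 2 of 9 genes, beside 4.75% of all genes, with differences of the log2 ratios of 1.50 for Mt1 and 1.10 for Mt2. For Tfrc the difference was -0.43 on the brightest probe set but -1.43 on 1422966_a_at. For Cp the difference was 0.11 on the brightest probe set and from -0.49 to 1.12 on the others measured. Between the IR arrays, its probe set 1448735_at was 2.18-fold higher in Tet2KO, while 5 of the 7 measured Cp probe sets were lower there. For Hmox1 the difference of the log2 ratios was at most 0.83 with the floor used here, because the WT ratio is a lower bound. It was 0.66 with no floor. With the floor at the 60th percentile it was 1.27, but there both sham signals were set to the floor. Both ratios were then lower bounds, and 1.27 is the log2 ratio between the IR arrays alone. The comparisons of genotypes and of responses use the same 4 arrays, so they are not separate evidence.

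Markers of tubule injury were also highest in the Tet2KO IR array. The summed linear signal of 7 injured tubule markers was 3509 in WT sham, 27362 in WT IR, 2071 in Tet2KO sham and 49782 in Tet2KO IR, with 4 of 7 higher in WT and 7 of 7 in the Tet2KO pair, while 14 proximal tubule markers summed to 197302, 150699, 196365 and 113622. Adipose markers, 7 of them, summed to 12276, 929.8, 2938 and 10997. After IR, 4 of 6 measured were lower in WT, beside 2.18% of all genes, and 5 of 6 were higher in the Tet2KO pair, beside 6.06%. Other marker lists also differed between the IR arrays. Their median log2 ratio, Tet2KO over WT, was 2.33 for podocyte, 1.32 for endothelium and 0.83 for stroma markers. It was -1.18 for collecting duct and -1.73 for loop of Henle and distal tubule markers, beside -0.0086 over all genes. The part of injury, fat RNA and other cell types in the IR ratios and in the size of the genotype difference was not tested.

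Genes with the most similar profile over the 4 arrays were sought among 12445 others (12446 for Hmox1). The measure was the Euclidean distance between log2 signals centred on each gene's mean. The WT sham signal of Hmox1, 5.56, was set to the floor of 5.72 here. Nearest to Mt1 were Slc16a1, a lactate transporter, at 0.086, Pea15a at 0.15 and Clu, the chaperone clusterin, at 0.17. Nearest to Mt2 were Maff, a small Maf transcription factor, at 0.22, Isg20 at 0.22 and Spns2, a sphingosine phosphate transporter, at 0.23. Nearest to Hmox1 were 2010204K13Rik at 0.23, the small GTPase gene Rras2 at 0.24 and Plec, the gene of the linker plectin, at 0.29. Nearest to Cp were Mcm4, a subunit of the replication helicase, at 0.19, the quinone reductase Nqo1 at 0.27 and the mast cell tryptase Tpsab1 at 0.30. With 4 arrays these distances describe the profiles only.

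The other genes of heme, iron, zinc and copper handling came from 11 lists. Of 115 genes besides the 10 members, 108 were on the array. In WT 5 of 97 measured were higher at 2-fold or more and 2 lower, beside 2.06% and 2.18% of all genes. In the Tet2KO pair 12 of 96 were higher and 11 lower, beside 6.06% and 6.89%. Their median log2 ratio was -0.0023 in WT and -0.16 in the Tet2KO pair. Among genes under 2-fold on the probe set read, another probe set reached 2-fold for 1 of 90 in WT, Nfs1, and for 5 of 73 in the Tet2KO pair, Ncoa4, Nfe2l2, Cisd1, Slc31a1 and Atp7a.

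In heme synthesis, 0 of 7 measured genes differed by 2-fold in WT. In the Tet2KO pair 1 was higher and 1 lower. Alas1, the rate-limiting first enzyme, had log2 signals of 10.89, 10.96, 10.09 and 11.97 and was 3.69-fold higher, with a log2 ratio of 1.63 on the second probe set. Uros, a later enzyme, was 3.40-fold lower, but by a log2 ratio of only -0.39 on the second probe set. Fech, which inserts the iron, had log2 ratios of -0.04 and 0.24.

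Among 9 measured genes of heme and hemoglobin transport and scavenging, 1 was lower and 0 were higher in WT, and 1 was higher and 2 lower in the Tet2KO pair. Hp, haptoglobin, which binds free hemoglobin, had log2 signals of 7.77, 6.17, 5.86 and 12.04. It was 3.03-fold lower after IR in WT and 72.4-fold higher in the Tet2KO pair. The adipose sums given above were likewise lower in the first pair and higher in the second, and the part of fat RNA in the Hp signal was not tested. Flvcr2 was 2.65-fold lower and Slc46a1, a folate and heme carrier of epithelia, 2.55-fold lower in the Tet2KO pair. Hpx, hemopexin, was under the floor in all arrays.

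The iron uptake and reduction list had 16 measured genes, of which 3 were higher and 1 lower in WT and 4 higher and 3 lower in the Tet2KO pair. Lcn2, which carries iron bound to siderophores and is also one of the injured tubule markers, was 50.9-fold and at least 230.2-fold higher. The metalloreductase family members Steap1 and Steap2 were higher in both pairs. Steap1 had log2 signals of 7.77, 9.68, 7.48 and 12.08 and was 3.76-fold higher in WT and 24.3-fold in the Tet2KO pair. Its other probe set gave log2 ratios of 2.72 and 4.64. Steap2 was 2.22-fold and 4.15-fold higher, although its other probe sets lay between 0.40 and 0.86 in WT and between 0.70 and 2.03 in the Tet2KO pair.

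Lower in both pairs was Slc39a8, which encodes ZIP8, the close relative of ZIP14. Its log2 signals were 10.92, 9.72, 10.86 and 7.87, so that it was 2.29-fold lower in WT and 7.91-fold lower in the Tet2KO pair, with log2 ratios of -1.51 and -3.73 on the second probe set. Lrp2 and Cubn, the megalin and cubilin receptors that take up filtered transferrin and hemoglobin in the proximal tubule, were 4.39-fold and 3.60-fold lower in the Tet2KO pair. The other probe sets of Lrp2 ranged from -1.81 to -0.23. Proximal tubule markers, of which Lrp2 is itself one, had a median log2 ratio of -1.05 there. Of these markers 7 of 14 were lower, beside 6.89% of all genes.

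In iron storage and release 0 of 4 measured genes differed by 2-fold in either pair on the probe set read. The ferritinophagy receptor gene Ncoa4 had log2 ratios of -0.17 and -0.72, but of -0.12 and -1.28 on the second probe set, and the iron chaperone gene Pcbp2 had -0.29 and 0.97 on its probe sets in the Tet2KO pair. Heph, a ferroxidase related to Cp, had log2 ratios of -0.20 and -0.79. In the export list, Cp was the 1 gene of 3 measured that reached 2-fold.

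Among regulators, 1 of 16 measured was higher in WT, and 3 of 15 were higher and 1 lower in the Tet2KO pair. Bmp6, the ligand that tells hepatocytes of iron load, was higher in both, with log2 signals of 9.22, 10.42, 9.47 and 10.77 and folds of 2.30 and 2.46. Hfe was 2.50-fold higher in the Tet2KO pair, with a log2 ratio of only 0.17 on the second probe set. Id1, a target of BMP signalling, was 2.87-fold higher there and had a log2 ratio of -0.76 in WT. Neo1 was 2.12-fold lower, with other probe sets from -0.66 to 0.33. Nfe2l2, which encodes NRF2, the factor known to act on the antioxidant response core, had log2 ratios of 0.32 and 0.35 and was not counted, although its second probe set gave 0.11 and 2.28. Hamp, hepcidin, was under the floor in all arrays, and the iron regulatory protein genes Aco1 and Ireb2 had log2 ratios of -0.03 and -0.08 in WT and of -0.73 and -0.71 in the Tet2KO pair.

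The list of mitochondrial iron and iron-sulfur clusters had a median log2 ratio of 0.04 in WT, with 0 of 14 at 2-fold, and of -0.47 in the Tet2KO pair, with 2 of 14 lower. These were the cysteine desulfurase Nfs1, by 2.40-fold, whose other probe sets ranged from -1.32 to -0.12, and Bola3, by 2.02-fold, with -0.38 on the second probe set. Cisd1, which encodes the iron-sulfur protein mitoNEET, had log2 ratios of -0.32 and -0.83 and was not counted, although its other probe sets were at -1.31 and -2.01 in the Tet2KO pair. In WT one probe set of Nfs1 was at -1.04, beside -0.43 on the probe set read.

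**Figure D4:**
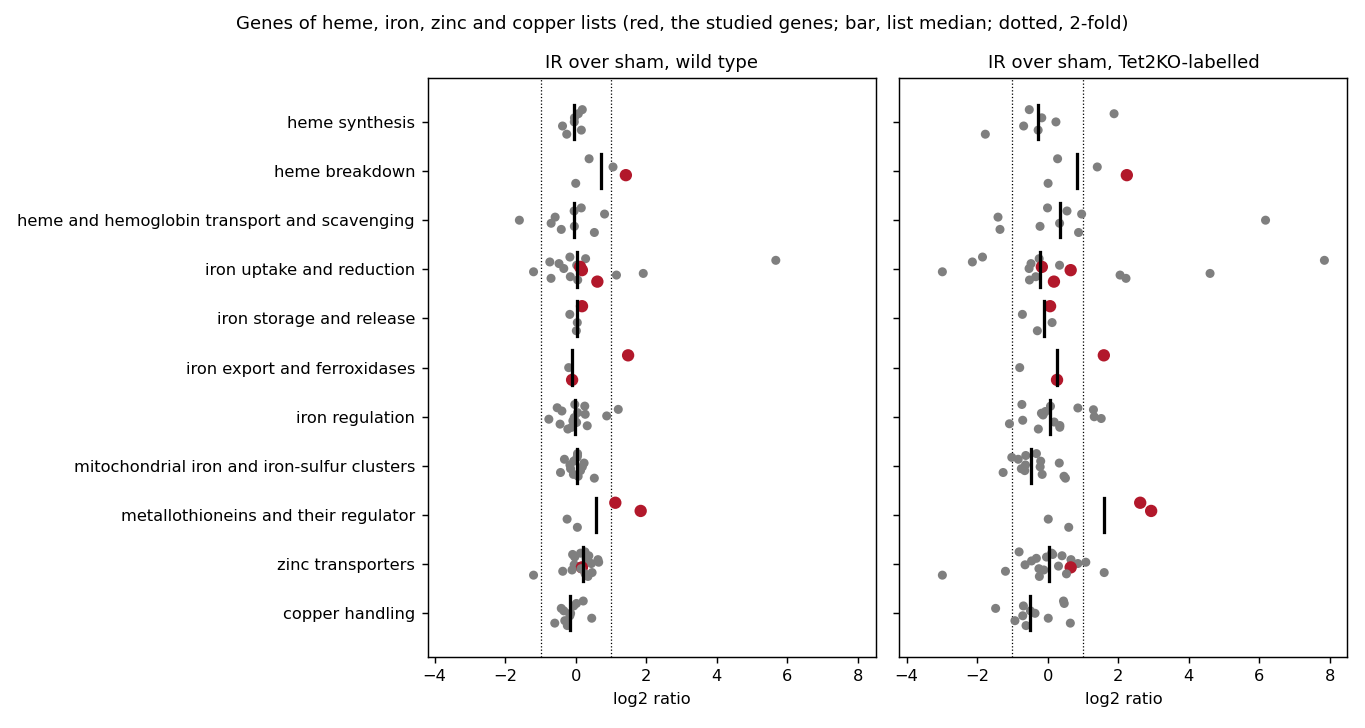
Log2 ratio of IR over sham in WT (left) and the Tet2KO pair (right) for each measured gene of 11 lists, with the studied genes in red, other genes in grey, black bars at the list medians and dotted lines at 2-fold. Lcn2, at 5.67 and 7.85, is the rightmost point of both panels, and the median of the mitochondrial list is 0.04 in the left panel and -0.47 in the right.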

How the data were processed

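The deposited table holds log2 signals of 45037 probe sets in 4 columns, all used. Their range, with no other statement, gave the log2 unit. MAS5, a program for Affymetrix signals, is named in the submitters' processing notes without settings, and how the authors scaled the arrays is not given in the sources used here. Column medians lay between 6.28 and 6.33.

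Genes were named through the array annotation, with exactly 1 symbol for 34945 probe sets, several for 932 and none for 9160. Each gene was read from its probe set with the highest mean signal, and from one ending in _x_at only where it had no other. Signals under the 40th percentile of all signals were set to that floor, log2 5.72. A gene was measured in a comparison if it reached the floor in 1 of its arrays, and a fold with one side under the floor is written as at least. Ratios are differences of log2 signals, called at 2-fold. With 1 array per group no p-value is given, and precision is limited by the number of arrays.

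The members, lists and sequences were chosen with earlier results of these data known. All 10 members are named. Other genes are named where they reached 2-fold in a comparison, as are the 3 nearest profiles of each member that did; further list genes and markers were named after their values were seen. Marker sums add linear signals. The ratio code was tested on simulated data. Python 3.11.15, numpy 2.4.6 and pandas 2.3.3 were used.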

Additional observations from a re-analysis of the deposited data

Results flagged for a closer look

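Some genes went opposite ways in the genotypes, by more than the SD between probe sets in each pair; with 1 array per group the difference was not tested. For Tfrc this held for probe set 1422966_a_at, with log2 ratios of IR over sham of 0.93 in WT and -0.50 in the Tet2KO pair, a difference of -1.43, while its brightest probe set gave 0.61 and 0.18. For Slc39a14 it held for probe set 1438490_at, with -0.24 and 0.68, a difference of 0.93, while its brightest probe set gave 0.17 and 0.65.

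Among the other list genes, Hp had log2 ratios of -1.60 and 6.18, a difference of 7.78. Steap4, a metalloreductase gene, had -0.70 and 2.22, a difference of 2.92, with signals under the floor in WT IR and Tet2KO sham and a log2 ratio of 0.29 in the Tet2KO pair on the second probe set. Id1 had -0.76 and 1.52, a difference of 2.28. Both log2 ratios stayed under 2-fold for 4 more genes: Bmp2, a BMP ligand gene, with -0.53 and 0.86, a difference of 1.38 and signals under the floor in WT IR and Tet2KO sham; the copper transporter gene Slc31a2 with -0.60 and 0.64, a difference of 1.24; and the zinc transporter genes Slc30a1 with 0.26 and -0.81, a difference of -1.07, and Slc30a9 with 0.32 and -0.46, a difference of -0.78. On its second probe set Slc30a1 gave 0.43 and -0.03.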

How the results depend on the processing

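The number of members at 2-fold or more stayed within 1.5 times its value in every comparison under the 8 alternatives: no floor, a floor at the 60th percentile, a pseudocount of 32 in place of the floor, quantile normalization, equal array medians, the median over a gene's probe sets, plain _at probe sets alone (where Fth1 has none), and, for IR alone, the sham array of the other genotype. It was 3 in place of 4 in WT with the higher floor and with the other sham array, Hmox1 being the gene that dropped out. For the difference of responses it was 3 in place of 2 with the higher floor. There Hmox1 entered, with both its sham signals set to the floor. Of 327 log2 ratios recomputed, 309 stayed within the SD between probe sets, 18 moved by more and 0 called values changed sign. With the sham array of the other genotype as control, 8 moved and 10 stayed. Those that moved included Mt1 in WT and Hmox1 and Cp in both pairs. With no floor, 45 stayed and none moved. Over the alternatives, the log2 ratio of Mt1 lay between 1.01 and 1.49 in WT and between 2.25 and 2.67 in the Tet2KO pair, that of Mt2 between 1.81 and 1.98 and between 2.79 and 2.93, and that of Cp between 1.42 and 1.96 and between 1.09 and 1.59. Hmox1 ranged from 0.16 to 1.59 and from 1.43 to 2.69; its sham signals were 5.56 and 6.16, beside a floor of 5.72. No paired analysis was possible because each group is 1 array.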

Other observations

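Zinc and copper genes outside the members were mostly within 2-fold. Of 19 measured zinc transporters besides Slc39a14, 0 were higher and 1 was lower in WT, the carrier Slc39a8, beside 2.06% and 2.18% of all genes. In the Tet2KO pair 2 were higher and 2 lower, beside 6.06% and 6.89% of all genes. Those higher were Slc39a1, by 2.12-fold, and Slc39a6, by 3.04-fold, with a log2 ratio of 0.12 on the second probe set, and besides Slc39a8 the carrier Slc39a5 was 2.29-fold lower. Slc30a1, the zinc exporter that MTF1 is known to control together with the metallothioneins, had log2 signals of 11.09 in WT sham, 11.35 in WT IR, 11.26 in Tet2KO sham and 10.45 in Tet2KO IR. Its log2 ratios were thus 0.26 and -0.81, and on the second probe set 0.43 and -0.03. The part of MTF1 in these values and in those of the metallothioneins was not tested.

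Of 11 measured genes of copper handling, 0 differed by 2-fold in WT, where 2.06% of all genes were higher and 2.18% lower. In the Tet2KO pair 1 was lower, beside 6.89% of all genes: Ccs, the copper chaperone of superoxide dismutase, by 2.78-fold. On second probe sets in that pair, Atp7a, a copper pump gene, had a log2 ratio of 1.35, beside 0.47 on the probe set read, and Slc31a1, the gene of the copper importer CTR1, just reached 2-fold lower, beside a log2 ratio of -0.93. The list's median log2 ratio was -0.17 in WT and -0.49 in the Tet2KO pair.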
